A study of Mus musculus with 6 samples.

Results

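The genes described here are the clock output genes *Dbp*, *Tef*, *Hlf*, *Nfil3*, *Ciart*, *Bhlhe40*, *Bhlhe41* and *Usp2*, measured by RNA-seq in mouse quadriceps muscle. They were taken by symbol from the count files, and all 8 were found among the 27179 genes listed there. The 6 libraries were 3 of control mice, lettered B to D, and 3 of miDrp1KO mice, lettered A, E and F, all on a normal chow diet. Both groups carried floxed *Dnm1l*, the gene for the mitochondrial fission protein Drp1, on a C57BL/6J background. The control genotype is given as f/f in the labels, while the methods of the study allow flox/+ or flox/flox controls. The miDrp1KO mice also carried HSA-MerCreMer, a tamoxifen-inducible Cre driven by the human *ACTA1* promoter, so that deletion is limited to skeletal muscle fibres and the other cells of the muscle keep the gene. By the study's methods both groups were male, received tamoxifen on 4 days when 3 months old (a daily dose of 50 mg/kg), and were studied after 6 hours of fasting. Muscle was taken 3 weeks post-*Dnm1l* deletion. The mice lived under a cycle of 12 hours of light and 12 hours of darkness. The hour of the day at which each muscle was taken is not given in the sources used here, and for genes whose level changes through the day it cannot be told apart from genotype.

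The circadian clock is a feedback loop in which Bmal1 (encoded by *Arntl*) and Clock bind E-boxes in DNA and switch on genes that include their own repressors, the Per and Cry proteins. Output genes carry this rhythm on to the rest of the cell. *Dbp*, *Tef* and *Hlf* encode the PAR bZIP activators, which bind D-boxes. *Nfil3* (E4bp4) encodes a repressor that binds the same D-boxes. *Bhlhe40* (Dec1), *Bhlhe41* (Dec2) and *Ciart* (Chrono) encode repressors that act on the Bmal1 and Clock complex, and *Usp2* encodes a deubiquitinase with strong daily rhythm in many tissues, skeletal muscle included.

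The sequences below are shown because they are the stretches of these promoters that hold a clock-related motif. Promoter windows from RefSeq on GRCm38.p6 ran from 250 bases before to 50 bases after an annotated transcript start. They were available for 7 of the 8 genes, with 2 windows for *Tef* at different starts. *Bhlhe40* had no window and was not searched. The windows of *Nfil3* and *Usp2* lie at starts inside the gene, so the outer starts of these genes were not searched. Each window was searched on both strands for the E-box CACGTG, the D-box TTANGTAA, the RORE core TAGGTCA, to which Ror and Rev-erb receptors bind, and the cAMP response element TGACGTCA. Matches are in capitals, none of them overlap, and each stretch is written on the strand of its gene with up to 44 bases on either side of a match, ending at the transcript start where that comes sooner.
Ciart promoter, chr3:95882229-95882388, minus strand: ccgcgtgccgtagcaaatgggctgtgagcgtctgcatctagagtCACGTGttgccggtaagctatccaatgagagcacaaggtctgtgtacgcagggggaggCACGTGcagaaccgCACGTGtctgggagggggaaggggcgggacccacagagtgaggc
Bhlhe41 promoter, chr6:145865524-145865617, minus strand: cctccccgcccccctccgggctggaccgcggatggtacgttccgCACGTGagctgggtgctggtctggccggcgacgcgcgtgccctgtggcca
Tef promoter, outer start, chr15:81802502-81802595, plus strand: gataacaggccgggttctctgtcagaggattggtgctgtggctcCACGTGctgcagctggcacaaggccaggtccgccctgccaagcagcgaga
Tef promoter, inner start, chr15:81811232-81811325, plus strand: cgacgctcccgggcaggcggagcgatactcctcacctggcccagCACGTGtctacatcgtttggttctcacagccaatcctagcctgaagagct
Nfil3 promoter, chr13:52981040-52981095, minus strand: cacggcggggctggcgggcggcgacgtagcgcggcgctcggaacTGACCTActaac
Hlf promoter, chr11:90390918-90390970, minus strand: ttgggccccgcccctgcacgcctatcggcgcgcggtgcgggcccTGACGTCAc

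E-boxes stood in the windows of *Ciart*, *Bhlhe41* and *Tef*. *Ciart* held 3 of them, starting 116, 58 and 44 bases before the transcript start. Among all 32851 promoter windows, 7.15% held an E-box and 29 windows (0.0883%) held 3 or more. *Bhlhe41* held 1 E-box 153 bases before its start, and the windows of *Tef* held 1 each, 127 and 138 bases before their starts. The RORE core in *Nfil3* lies 12 bases before an inner transcript start, not before the outer start of the gene. It reads TGACCTA on the strand of the gene, the reverse complement of TAGGTCA, a motif in 2.606% of windows. *Hlf* held a cAMP response element 9 bases before the start, a motif in 1.79% of windows. No D-box, present in 2.323% of windows, was found in the windows of these genes. *Dbp* and *Usp2* had no match to any of these letters in their windows, that of *Usp2* being at an inner start. Among the core clock genes 15 of 20 had windows, with an E-box in those of *Cry1* and *Per1*, a D-box in those of *Per3*, *Rorb* and *Timeless* and a RORE core in that of *Arntl*. These matches describe letters in the sequence and were not tested as binding sites.

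Each library held 13989588 to 62042255 counts, and the clock output genes were counted with 89 reads at the least (*Ciart* in miDrp1KO F) and 10904 at the most (*Tef* in control D). Ribosomal RNA genes took 1.48 to 24.4% of the counts. *Dnm1l*, the deleted gene, was at 156, 114 and 140 CPM (its count scaled to a common library size) in controls B, C and D and at 70.6, 81.3 and 66.2 CPM in miDrp1KO A, E and F. All 3 miDrp1KO libraries were below all controls, in the direction the labels imply. The log2 fold change of *Dnm1l* was -0.91 with an SE of 0.18 and an adjusted p of 0.362 by edgeR's quasi-likelihood test. Each title names a different mouse, so p-values measure the spread between these mice. Whole muscle was sampled, and in such bulk RNA fewer cells of a type and less RNA per cell cannot be told apart. All 12 markers of skeletal muscle fibres were present, with a summed level of 158517 to 173165 CPM in controls and 82557 to 133872 CPM in miDrp1KO muscle, 10 of the 12 having a negative fold change. These 12 markers are mostly genes of fast fibres, while all 8 slow fibre markers had a positive fold change. The part of the lower level of the 12 markers in the levels of the clock output genes was not tested. Slow fibre markers did not follow genotype in every library, and their values are given with the results they move with.

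The comparison of miDrp1KO with control muscle asks whether loss of Drp1 in muscle fibres goes with another level of these genes. The mean of each of the 8 genes was lower in miDrp1KO muscle, from 0.930 of the control mean for *Hlf* to 0.545 of it for *Bhlhe41*. None of the 8 passed an adjusted p of 0.05, where 2 of the 16483 genes tested (0.0121%) did. Unadjusted p-values under 0.05 were found for *Bhlhe40* and *Bhlhe41*, 2 of the 8, while 6.22% of all genes tested had such a p and were lower in miDrp1KO muscle. In *Tef*, *Bhlhe40* and *Bhlhe41*, 3 of the 8, each miDrp1KO library was below each control, a pattern that 10.3% of all genes showed. The median log2 fold change of the 8 genes was -0.39, beside 0.017 for all genes tested, and 48.0% of all genes had a negative fold change. DESeq2 and limma voom also called 0 of the 8 genes, where they called 55 and 1 of all genes tested. Each gave 2 of the 8 an unadjusted p under 0.05, with no adjusted p for *Ciart* in DESeq2. Such a p, in either direction, was found for 1709 of all 16478 genes in DESeq2 and for 2068 of all 16483 in limma voom.

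**Figure D1:**
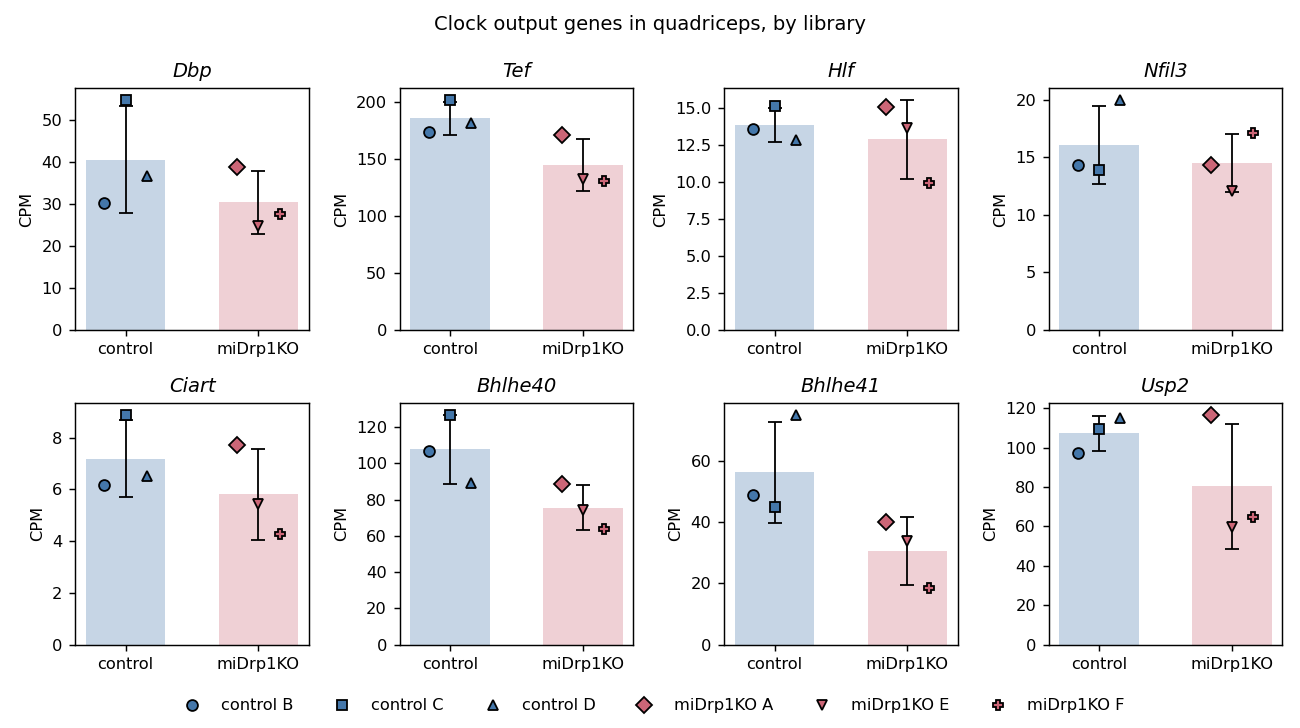
Level of each clock output gene (vertical axis, CPM with TMM library sizes) in control and miDrp1KO quadriceps. Points are the 6 libraries, bars the mean of 3 libraries and error bars the SD; in *Tef*, *Bhlhe40* and *Bhlhe41* no miDrp1KO point reaches a control point, and miDrp1KO A is the highest of its group in 7 of the 8 panels.

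Among the PAR bZIP activators, *Dbp* (Entrez 13170, chr7:45705100-45710203) is the member of this family with the steepest daily rhythm in most tissues. It was at 30.3, 54.9 and 36.7 CPM in controls B, C and D and at 38.9, 24.8 and 27.5 CPM in miDrp1KO A, E and F. Control C stood above all other libraries, miDrp1KO A lay within the control range, and the groups overlapped. The mean was 40.6 ± 12.8 CPM in controls and 30.4 ± 7.49 CPM in miDrp1KO muscle (SD, n = 3 each), with an exact permutation p of 0.3, two-sided. The log2 fold change was -0.42 with an SE of 0.24 and a 95% interval of -0.96 to 0.13, and edgeR's adjusted p was 0.567.

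*Tef* (Entrez 21685, chr15:81802673-81826863), whose windows each hold an E-box as printed above, was at 173, 202 and 182 CPM in controls B, C and D and at 170, 132 and 130 CPM in miDrp1KO A, E and F. The groups did not overlap, but miDrp1KO A came close to control B, at a ratio of 0.984. The mean of *Tef* was 186 ± 14.5 CPM in controls and 144 ± 22.6 CPM in miDrp1KO muscle, or 0.778 of the control mean, and the exact permutation p was 0.1, the smallest that 3 libraries against 3 can give. By edgeR the log2 fold change was -0.36 with an SE of 0.18, a 95% interval of -0.76 to 0.042 and an adjusted p of 0.507.

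*Hlf* (Entrez 217082, chr11:90336535-90390917) was at 13.6, 15.1 and 12.8 CPM in controls B, C and D and at 15.1, 13.6 and 9.89 CPM in miDrp1KO A, E and F. Only miDrp1KO F was below the controls. The difference was smaller than the spread between libraries of a group, at a log2 fold change of -0.10 with an SE of 0.19 and an adjusted p of 0.879 in edgeR, and the 95% interval ran from -0.52 to 0.32.

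*Nfil3* (Entrez 18030, chr13:52967209-52982878), the repressor at the D-boxes that *Dbp*, *Tef* and *Hlf* proteins use, was at 14.3, 13.9 and 20.01 CPM in controls B, C and D and at 14.3, 12.04 and 17.1 CPM in miDrp1KO A, E and F. Control D and miDrp1KO F were the high libraries of their groups, and the groups overlapped. The log2 fold change of *Nfil3* was -0.16 with an SE of 0.20 and a 95% interval of -0.60 to 0.28, and the adjusted p was 0.801 in edgeR. As a description of activator over repressor, the ratio of *Dbp* to *Nfil3* in CPM per kb of exon was 1.43, 2.67 and 1.24 in controls B, C and D and 1.84, 1.40 and 1.09 in miDrp1KO A, E and F. This ratio overlapped between the groups, as did that of *Tef* to *Nfil3*, with means of 3.06 ± 0.697 in controls and 2.62 ± 0.583 in miDrp1KO muscle. The ratio of *Hlf* to *Nfil3* averaged 0.270 and 0.280. Between the activators themselves, *Tef* over *Dbp* averaged 1.82 ± 0.395 in controls and 1.83 ± 0.184 in miDrp1KO muscle.

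Among the repressors of Bmal1 and Clock, *Bhlhe41* and *Bhlhe40* showed the lowest fold changes of the 8 genes. *Bhlhe41* (Entrez 79362, chr6:145858243-145865420) was at 48.9, 44.9 and 75.2 CPM in controls B, C and D and at 40.0, 33.8 and 18.4 CPM in miDrp1KO A, E and F. All miDrp1KO libraries were below all controls, control D and miDrp1KO F stood apart at the ends, and the highest library was 4.09 times the lowest, the widest range among the 8 genes. The mean was 56.3 ± 16.5 CPM in controls and 30.7 ± 11.1 CPM in miDrp1KO muscle, with an exact permutation p of 0.1. The log2 fold change was -0.88 with an SE of 0.31 and a 95% interval of -1.58 to -0.17. Its unadjusted p was 0.0203 and its adjusted p 0.393 in edgeR.

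*Bhlhe40* (Entrez 20893, chr6:108660629-108666925) was at 107, 127 and 89.3 CPM in controls B, C and D and at 88.7, 74.5 and 63.5 CPM in miDrp1KO A, E and F. The groups did not overlap, yet miDrp1KO A and control D were almost level, at a ratio of 0.993. The mean was 108 ± 18.8 CPM in controls and 75.6 ± 12.6 CPM in miDrp1KO muscle, or 0.702 of the control mean, with an exact permutation p of 0.1. By edgeR the log2 fold change of *Bhlhe40* was -0.51 with an SE of 0.19, a 95% interval of -0.94 to -0.082, an unadjusted p of 0.0237 and an adjusted p of 0.405. The ratio of *Bhlhe41* to *Bhlhe40* per kb of exon was 0.321, 0.248 and 0.590 in controls B, C and D and 0.315, 0.317 and 0.203 in miDrp1KO A, E and F, so the groups overlapped in the balance of these paralogues.

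*Ciart* (Entrez 229599, chr3:95878500-95882257), the gene with the 3 E-boxes, was at 6.16, 8.89 and 6.53 CPM in controls B, C and D and at 7.73, 5.42 and 4.27 CPM in miDrp1KO A, E and F. These values rest on 130, 122 and 392 counts in controls B, C and D and on 159, 221 and 89 counts in miDrp1KO A, E and F. As in *Dbp*, miDrp1KO A lay within the control range and both other miDrp1KO libraries lay below it. The log2 fold change of *Ciart* was -0.30 with an SE of 0.25 and a 95% interval of -0.86 to 0.25, and the adjusted p was 0.691 in edgeR.

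*Usp2* (Entrez 53376, chr9:44067021-44095627) showed the most uneven miDrp1KO group. It was at 97.3, 109 and 115 CPM in controls B, C and D and at 117, 59.4 and 64.9 CPM in miDrp1KO A, E and F. MiDrp1KO A was above every control, while E and F were far below them. The coefficient of variation was 8.46% in controls and 39.3% in miDrp1KO muscle, the largest of the 8 genes. The log2 fold change of *Usp2* was -0.42 with an SE of 0.25 and a 95% interval of -0.96 to 0.13, the exact permutation p was 0.4, and the adjusted p was 0.567 in edgeR.

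Levels of different genes were set side by side only as CPM per kb of exon. In controls *Tef* was highest at 23.6 ± 1.85, followed by *Bhlhe40* at 22.9 ± 3.995 and *Usp2* at 22.2 ± 1.88 (SD, n = 3). These neighbours overlapped between control libraries and cannot be ordered. *Dbp* at 13.6 ± 4.27 was below *Usp2* in every control, and it overlapped with *Bhlhe41* at 8.39 ± 2.45, which in turn overlapped with *Nfil3* at 7.94 ± 1.68. *Ciart* at 3.18 ± 0.656 and *Hlf* at 2.07 ± 0.172 were the lowest and stood apart from their neighbours in controls. In miDrp1KO muscle the mean per kb of *Usp2* (16.7 ± 6.56) was above that of *Bhlhe40* (16.1 ± 2.68), and that of *Nfil3* (7.14 ± 1.25) above that of *Bhlhe41* (4.57 ± 1.65), while the other 4 genes kept their rank. The order of *Usp2* and *Bhlhe40* rested on miDrp1KO A (24.2 against 18.9). *Usp2* was the lower in E (12.3 against 15.8) and almost level in F (13.47 against 13.50), so these genes cannot be ordered here either.

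The miDrp1KO libraries did not behave alike across the 8 genes. MiDrp1KO E and F were each below all controls in 7 genes, where 31.8% of all genes tested were below them in E and 33.1% in F. Both were below all controls in 6 genes, which was so for 20.4% of all genes tested. MiDrp1KO A was below the controls in 3 genes, within their range in 4 and above it in 1, beside 26.1% of all genes tested below and 24.9% above. It was the highest of the 3 miDrp1KO libraries in 7 of the 8 genes, where 38.1% of all genes tested had A on top. Set against the control mean, the median of the 8 genes on the log2 CPM scale was -0.14, 0.13 and -0.064 in controls B, C and D. It was -0.067 in miDrp1KO A, within the controls, and -0.50 and -0.62 in E and F. By the mouse numbers in the titles, E and F are consecutive animals, as are controls C and D, and A is not next to E and F. Whether those numbers stand for litters or days is not given in the sources used here, and their part in this split was not tested.

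**Figure D2:**
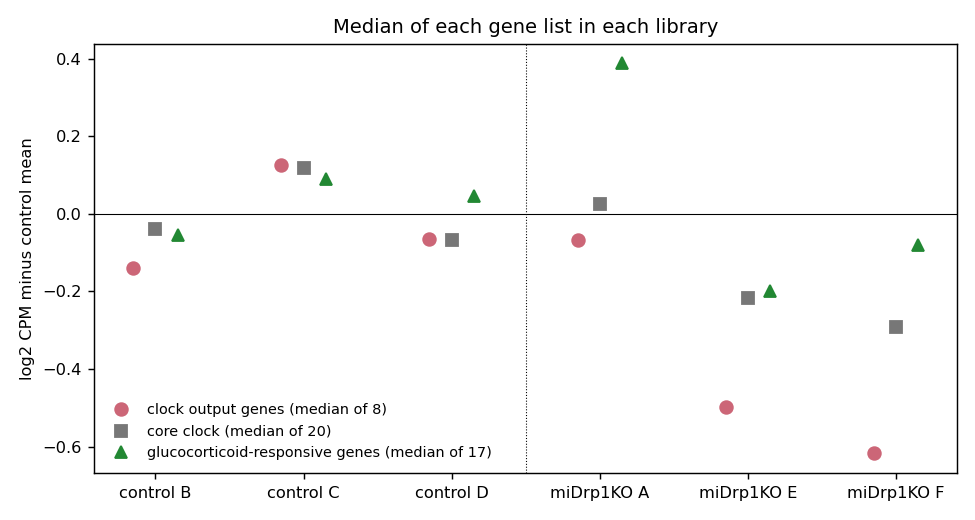
Median of each gene list in each of the 6 libraries (vertical axis, log2 CPM minus the control mean of each gene), with the dotted line between control and miDrp1KO libraries. For the clock output genes (circles) miDrp1KO A, at -0.067, lies among the controls, while E and F lie at -0.50 and -0.62; squares are core clock genes and triangles are glucocorticoid-responsive genes.

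Leaving out single libraries moved the median of the 8 genes, which was -0.39 with all of them, in both directions. It was -0.27 without miDrp1KO E, -0.28 without F and -0.30 without control C, where *Dbp* came to -0.16. Without miDrp1KO A, the highest library of its group in 7 of the 8 genes, the differences were larger in 7 of the 8 genes, but none passed the adjusted threshold. *Usp2* came to a log2 fold change of -0.76, with an unadjusted p of 0.00111 and an adjusted p of 0.0798 in edgeR. *Bhlhe41* came to -1.09 with an adjusted p of 0.147, *Bhlhe40* to -0.62 with 0.160, *Tef* to -0.47 with 0.200 and *Dbp* to -0.61 with 0.241, all by edgeR. These 5 genes then had an unadjusted p under 0.05, and 1589 of the 17845 genes tested in that fit (8.9%) had such a p and were lower in miDrp1KO muscle. The median of the 8 genes was -0.57, beside 0.064 for all genes. *Nfil3*, at -0.13, was the exception and lay nearer 0 without A. In the other direction, leaving out control D took *Nfil3* to 0.053 and leaving out miDrp1KO F took *Hlf* to 0.074, so the sign of these 2 genes rested on 1 library. The sign of *Dbp*, *Tef*, *Ciart*, *Bhlhe40*, *Bhlhe41* and *Usp2* was negative in all 15 alternative settings tried.

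**Figure D3:**
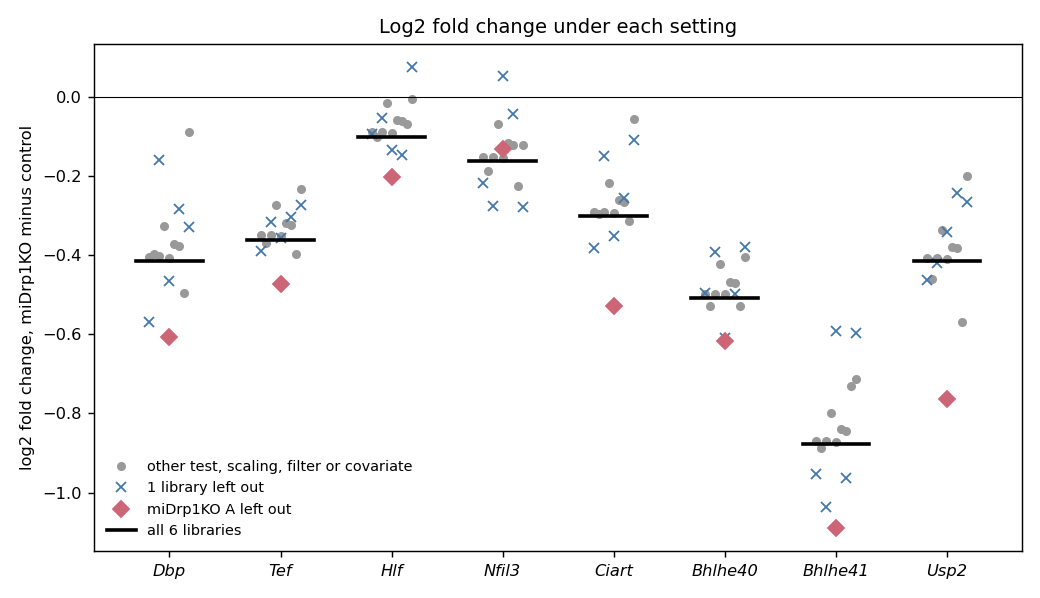
Log2 fold change (vertical axis, miDrp1KO minus control) of each clock output gene under every setting. Black lines use all 6 libraries, red diamonds leave out miDrp1KO A, crosses leave out another library and grey points use another test, scaling, filter or covariate; *Bhlhe41* ranges from -1.09 to -0.59, and only *Hlf* and *Nfil3* cross 0.

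The level of slow fibre markers moved with several of these genes. The summed level of 8 slow fibre markers was 526, 68.3 and 106 CPM in controls B, C and D, against 119, 776 and 679 CPM in miDrp1KO A, E and F. Thus the libraries with much slow fibre RNA were control B and miDrp1KO E and F, and in *Dbp*, *Tef*, *Ciart* and *Usp2* the same libraries were the lowest of their groups. In *Dbp* all 3 of them, at 24.8 to 30.3 CPM, were below the other 3, at 36.7 to 54.9 CPM. With the slow fibre level as a covariate, an alternative chosen after seeing the data, the log2 fold change was -0.088 for *Dbp*, -0.057 for *Ciart* and -0.20 for *Usp2*. It was -0.23 for *Tef*, -0.41 for *Bhlhe40*, -0.71 for *Bhlhe41*, -0.12 for *Nfil3* and -0.0061 for *Hlf*. None of the 8 genes then had an unadjusted p under 0.05 in edgeR, where 1435 of the 16483 genes tested in that fit had one. All 8 slow fibre markers had a positive fold change, and the mean of their summed level in miDrp1KO muscle was 2.25 times that in controls, so this covariate itself runs with genotype. Among other cell types, all 8 adipocyte markers had a negative fold change in miDrp1KO muscle, with a summed level of 285 to 410 CPM against 431 to 694 CPM in controls. All 6 fibroblast markers and all 5 tested peripheral nerve markers had a positive fold change, as had 3 of 4 blood, 3 of 6 macrophage and 1 of 6 endothelial markers. The summed levels of the lists for blood, macrophage, fibroblast, endothelial and peripheral nerve cells overlapped between the groups, and none of their measured markers was at 0 in every library. The part of these other cell types in the levels of the clock output genes was not tested.

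The genes of the core loop were read from the same fit to set the outputs beside their drivers. Of 20 core clock genes tested, 0 passed the adjusted threshold in edgeR. Of the 20, 5 had a positive and 15 a negative fold change, where 48.0% of all genes tested had a negative one. Their median log2 fold change was -0.16, beside 0.017 for all genes tested. This median rested in part on single libraries, at -0.029 without miDrp1KO F, -0.10 without E and -0.25 without A. It was -0.072 with upper quartile normalization, -0.076 after removal of *Lars2* and the ribosomal RNA genes and -0.089 with the slow fibre level as a covariate. An unadjusted p under 0.05 was found for 1 higher gene, where 4.68% of all genes tested had one. It was also found for 1 lower gene, where 6.22% of all genes tested had one. The higher gene was *Rorb*, a nuclear receptor that is an activator at ROREs, at a log2 fold change of 0.74 and a level of 1.67 to 3.28 CPM in controls and 3.55 to 3.84 CPM in miDrp1KO muscle. The lower gene was *Btrc*, part of the ubiquitin ligase that marks Per proteins, at 21.5 to 22.6 CPM in controls and 16.1 to 17.0 CPM in miDrp1KO muscle.

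The activators of the loop lay close to 0, with a log2 fold change of -0.12 for *Arntl* and -0.095 for *Clock*. *Npas2*, a paralogue of *Clock*, was at 0.43 with an SE of 0.49, on 5 to 65 counts per library. *Arntl* is out of phase with *Dbp* in a running clock. It was at 29.0, 18.1 and 33.4 CPM in controls B, C and D and at 18.3, 30.8 and 25.1 CPM in miDrp1KO A, E and F, so control C and miDrp1KO A, the libraries with the highest *Dbp* in their groups, had the lowest *Arntl*. Controls B and D went the other way, with *Dbp* at 30.3 and 36.7 CPM, so D was the higher in both genes. The Per and Cry repressors were at -0.069 for *Per1*, -0.25 for both *Per2* and *Per3*, 0.24 for *Cry1* and -0.61 for *Cry2*. *Per2* was at 14.8, 15.7 and 13.7 CPM in controls B, C and D and at 21.0, 8.996 and 7.34 CPM in miDrp1KO A, E and F. Like *Usp2*, it had miDrp1KO A above and E and F below all controls. The Rev-erb receptors, which repress *Arntl* and *Nfil3* through ROREs, were at -0.42 for *Nr1d1* and -0.10 for *Nr1d2*. *Nr1d1* was at 81.8, 71.8 and 61.5 CPM in controls B, C and D and at 46.9, 69.1 and 44.1 CPM in miDrp1KO A, E and F, where the library that overlapped the controls was E rather than A.

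**Figure D4:**
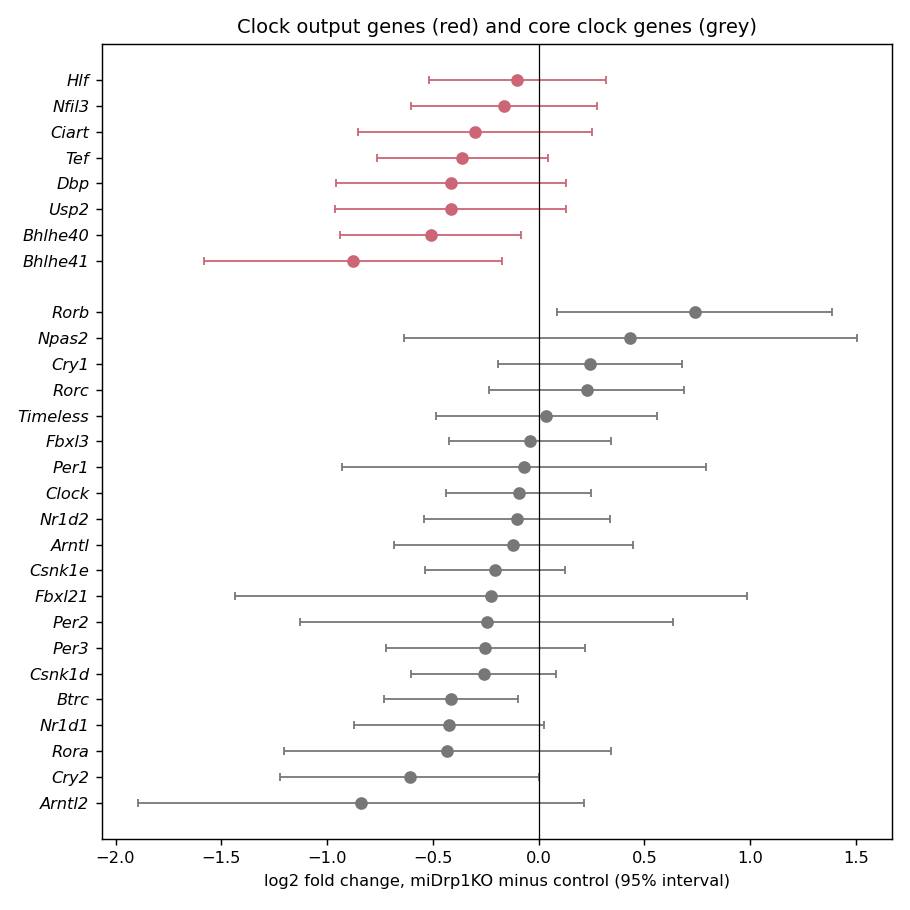
Log2 fold change of miDrp1KO minus control (horizontal axis) with its 95% interval for the 8 clock output genes (red) and 20 core clock genes (grey), ordered by value within each set. All red points are below 0, and among them only the intervals of *Bhlhe40* and *Bhlhe41* leave out 0.

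Genes known as targets of the PAR bZIP proteins were described the same way. Whether they are targets in muscle was not tested, and some of them had few counts. Of 15 such genes 13 had enough counts to be tested, 0 passed the adjusted threshold in edgeR, 11 had a negative fold change, where 48.0% of all genes did, and the median was -0.25. The 2 untested genes, named here although the rule for naming genes does not take them, were *Ces2a*, at 1 to 7 counts in controls and 8 to 41 in miDrp1KO muscle, and *Cyp2a5*, at 2 to 19 and 7 to 60 counts. Both had a higher mean CPM in miDrp1KO muscle. An unadjusted p under 0.05 was found for 2 of the 13, both lower, beside 6.22% of all genes tested. *Por*, the electron donor of microsomal P450 enzymes, was at 23.7, 30.5 and 27.2 CPM in controls B, C and D and at 21.7, 19.8 and 20.8 CPM in miDrp1KO A, E and F. *Alas1*, the rate-limiting enzyme of haem synthesis, had a log2 fold change of -0.63 and overlapped between the groups. Part of this list, such as *Per1*, *Per2* and *Nr1d1*, is also in the core clock list.

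The genes whose pattern over the 6 libraries was most like that of *Dbp*, by Pearson's r of log2 CPM among 9441 genes with a mean of at least 5 CPM, were *Cdkn2c* (r = 0.997), *Psmb7* (0.994), *Ssr3* (0.992), *Alyref* (0.992) and *Pank3* (0.990). For *Bhlhe41* they were *Supt16* (r = 0.991), *Aqr* (0.990), *2900076A07Rik* (0.984), *Ggcx* (0.982) and *Nbas* (0.981). With 6 libraries such values are common, since 311 genes had an r above 0.9 with *Dbp* and 521 with *Bhlhe41*. None of these 10 genes is a clock output or core clock gene of the lists used here.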

How the data were processed

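RNA-seq libraries of quadriceps muscle from 3 control and 3 miDrp1KO mice were compared. The authors prepared ribosomal RNA-depleted, stranded total RNA libraries, sequenced them in 2 pools, checked reads with FastQC, aligned them to GRCm38 and counted them per gene with Rsubread, and per the submitters' notes used DESeq2 1.30.0. They deposited raw counts, 1 file per library. Which library was in which pool, and how strand and overlapping genes were counted, are not given in the sources used here. Genotype labels gave the groups, and no library was left out or pooled.

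The test was edgeR 4.0.16 in R 4.3.3, a robust quasi-likelihood fit to TMM-normalized counts of the 16483 genes that filterByExpr kept, with p-values adjusted over them by Benjamini-Hochberg and a threshold of 0.05, after the method was tested on simulated counts. CPM used TMM library sizes, and log2 CPM a prior count of 2. Single genes were also compared by two-sided exact permutation tests. Exon lengths came from GENCODE vM21, and coordinates are on GRCm38. Alternatives were DESeq2 1.42.0, limma 3.58.1 voom, other normalizations and filters, leaving out ribosomal RNA genes and *Lars2*, covariates and leave-one-out fits. The members and lists were chosen with earlier results of these data known. All 8 members were named, of the core clock its 10 main genes and any with an unadjusted p under 0.05, of other lists at most the 3 genes with the lowest p, and for *Dbp* and *Bhlhe41* the 5 genes most alike. The lists were core clock, PAR bZIP target, other rhythmic muscle, glucocorticoid-responsive and hypoxia-inducible genes and cell type markers.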

Additional observations from a re-analysis of the deposited data

How the results depend on the processing

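None of the 8 clock output genes and none of the 20 core clock genes was called in any of the 15 alternatives. Of the clock output genes, 6 kept a negative fold change throughout. *Nfil3* reached 0.053 without control D and *Hlf* reached 0.074 without miDrp1KO F. Leave-one-out fits gave -0.61 to -0.16 for *Dbp*, -0.47 to -0.27 for *Tef*, -0.20 to 0.074 for *Hlf*, -0.28 to 0.053 for *Nfil3*, -0.53 to -0.11 for *Ciart*, -0.62 to -0.38 for *Bhlhe40*, -1.09 to -0.59 for *Bhlhe41* and -0.76 to -0.24 for *Usp2*. The unadjusted p was under 0.05 in 12 of the 15 alternatives for *Bhlhe41*, 10 for *Bhlhe40*, 2 for *Dbp* and 1 each for *Tef* and *Usp2*, and the adjusted p of *Bhlhe41* ran from 0.130 in DESeq2 to 0.877. The median of the core clock genes ran from -0.25 to -0.029. The number of genes called among all tested, 2 in edgeR with all libraries, was 55 in DESeq2, 1 in limma voom, 8 with no filter on low counts, 1 with ribosomal RNA share as covariate, 4 with slow fibre level as covariate (chosen after seeing the data) and 1 to 7 in leave-one-out fits, with 7 without miDrp1KO A. The cause of these differences was not tested. No paired analysis was run. Each library has its own letter, so the letters cannot tie mice of the groups together. Whether any of the mice shared a litter or a day is not given in the sources used here. With 3 libraries in a group an exact permutation test cannot go below 0.1, and *Ciart*, the gene with the fewest reads, rests on 89 to 392 counts.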

Other observations

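Genes that glucocorticoids switch on, some of which also follow a daily rhythm, set miDrp1KO A apart from the other libraries more than they separated the groups. Of 17 such genes 0 were called by edgeR. A negative fold change was found for 10, beside 48.0% of all genes tested, and a positive one for 7, and the median was -0.025. MiDrp1KO A was the highest of all 6 libraries in 13 of the 17 (76.5%), where this was so for 14.5% of all genes tested. Their median relative to the control mean was -0.053, 0.091 and 0.047 in controls B, C and D, 0.39 in miDrp1KO A, and -0.20 and -0.079 in E and F. *Mt2*, a metallothionein, was the gene of this list with an unadjusted p under 0.05, at 0.616, 1.38 and 1.68 CPM in controls B, C and D, against 9.82, 3.46 and 3.84 CPM in miDrp1KO A, E and F, with an adjusted p of 0.362 in edgeR.

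*Bhlhe40* and *Bhlhe41* are also known as hypoxia-inducible genes. Of 16 genes of that kind, these 2 included, 0 were called by edgeR, and 11 had a negative fold change, beside 48.0% of all genes tested. The median log2 fold change was -0.25, a value that counts *Bhlhe41*, the lowest of the list at -0.88, and *Bhlhe40* at -0.51. An unadjusted p under 0.05 was found for 4 lower genes, *Bhlhe40* and *Bhlhe41* among them, and for 1 higher gene, where 6.22% of all genes tested were lower and 4.68% higher with such a p. *Egln1*, an oxygen-sensing prolyl hydroxylase, was at 216, 158 and 185 CPM in controls B, C and D and at 123, 127 and 146 CPM in miDrp1KO A, E and F, and these groups did not overlap. Of 23 other rhythmic genes of muscle, 0 were called by edgeR, 15 had a negative fold change, beside 48.0% of all genes tested, and the median was -0.11. The 3 with an unadjusted p under 0.05, all lower, beside 6.22% of all genes tested, were *Ucp3*, a mitochondrial uncoupling protein, at -0.64, *Pfkfb3*, an activator of glycolysis, at -0.75, and *Irs2*, an adaptor of the insulin receptor, at -0.53.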
